A study of Mus musculus with 8 samples.

Results

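The interaction of PRDX1 and RANKL was measured as the part of the response to both agents that the responses to each agent alone did not add up to on a log scale. For each gene the difference between PRDX1 + no RANKL and no PRDX1 + no RANKL was subtracted from the difference between PRDX1 + RANKL and no PRDX1 + RANKL, on group means of log2(FPKM + 1). FPKM is fragments per kilobase of transcript, scaled to the reads of the library. All 25124 genes of the table were considered, and the 11700 with a mean FPKM of at least 0.5 over the 8 libraries were the members described here. A value of 0 means that the fold changes of the single agents multiplied. A value above 0 (a departure above) means that the level with both agents was higher than the multiplied single effects, and a value below 0 (a departure below) that it was lower. The selection used the mean level alone. In 219 of the 11700 genes that mean reached 0.5 only through the highest group (the other 6 libraries averaged under 0.5 FPKM), and 65 of these were called, 51 of them highest with RANKL alone. For such genes selection and departure are tied, and the named ones (Oscar, Rufy4, Steap4, Scd1, Serpinb2, Cxcl11, Bmp2, Mir7029, Mir7653 and Mir8091) are given as a description. List counts that hold such genes are also given without them.

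The samples were primary mouse osteoclast precursor (OCP) cells, which are bone marrow-derived macrophages. The labels give C57BL/6 mice of 6 to 8 weeks as the source, whereas the culture methods of the study name ICR mice. Every group was kept in M-CSF, at 5 ng/mL for 16 h and then 30 ng/mL for 3 days. The groups of 2 libraries each were no PRDX1 + no RANKL (M-CSF alone), PRDX1 + no RANKL (PRDX1 at 200 nM), no PRDX1 + RANKL (RANKL at 100 ng/mL) and PRDX1 + RANKL (both at those doses), all for 48 h. PRDX1 was a His-tagged recombinant protein made in Escherichia coli and passed over an endotoxin-removal resin. Nothing in the labels says that the 2 libraries of a group came from separate mice or cultures, so each p-value measures only the spread between these libraries, which may be technical. In bulk RNA, fewer cells of a type and less RNA per cell cannot be told apart.

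RANKL is the cytokine that turns macrophage precursors into osteoclasts, the cells that dissolve bone. It binds RANK and raises NF-kB and AP-1 factors and then NFATc1, the master regulator of the osteoclast program, while the precursor gives up many of its macrophage genes. Peroxiredoxin 1 (PRDX1) is an antioxidant enzyme of the cytosol that, once outside the cell, can act on TLR4, the receptor for bacterial lipopolysaccharide, which also signals to NF-kB and to interferon genes. An interaction between them therefore concerns genes that both agents reach, and genes of the osteoclast and macrophage programs that RANKL alone moves.

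The libraries held 27284648 to 46171830 reads, and their replicates differed by more than counting error in every group (chi-square per gene of 4.72 to 9.61), so none was a copy of another. All 10 macrophage markers were detected. Their sum was 15466 to 17215.5 FPKM with neither agent, 16372 to 16842 with PRDX1, 9883 to 10313 with RANKL and 13324 to 13717 with both. Lymphocyte markers summed to at most 2.29 FPKM (2 of 10 at 0 in all libraries), mast cell markers to at most 0.344 (4 of 7 at 0) and erythroid markers to at most 0.546 (3 of 9 at 0). The 13 neutrophil markers summed to 19.9 to 27.5 FPKM without PRDX1 and to 46.7 to 60.8 FPKM with it. The 13 stromal markers summed to 14.4 to 19.0 FPKM without PRDX1 and to 29.1 to 36.9 FPKM with it. The 8 dendritic cell markers summed to 3.30 to 4.87 FPKM without PRDX1 and to 5.43 to 6.99 FPKM with it. The part of such cells in the results below was not tested.

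The departure passed the test in 1036 of the 11700 genes (8.85%), at an adjusted p under 0.05 and a departure of at least 1.5-fold by limma. It was above in 527 genes (4.5%) and below in 509 (4.35%). The median over all genes tested was -0.0095. Of the called genes 335 departed by at least 2-fold and 47 by at least 4-fold, and 39 of those 47 lay below. The low end was led by genes of bone resorption such as Ctsk and Atp6v0d2, and the high end by Slco2b1 and Slc40a1, which encode transporters.

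**Figure D1:**
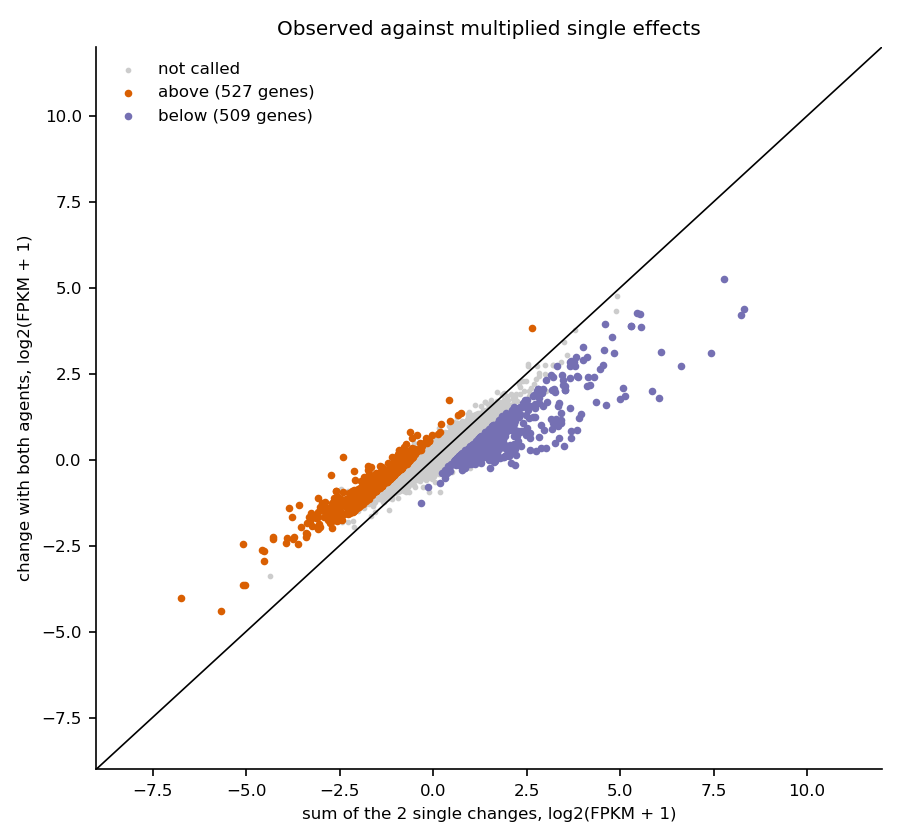
Change with both agents against no PRDX1 + no RANKL (vertical axis) plotted on the sum of the single changes (horizontal axis), both in log2(FPKM + 1), with 1 point for each of 11700 genes. The line marks fold changes that multiply. The 527 called genes above it include 519 whose single changes sum to a fall, and the 509 below it include 507 whose single changes sum to a rise.

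The called genes were sorted by the sizes of the single effects, as a description with no test of its own. In 387 genes the mean was at least 1.5-fold lower with RANKL alone, and the RANKL effect was smaller in the presence of PRDX1. In 362 genes it was at least 1.5-fold higher with RANKL alone, again with a smaller RANKL effect in the presence of PRDX1. Each agent alone was at least 1.5-fold lower in 85 genes and at least 1.5-fold higher in 84, and by the definition of these classes the joint change was smaller than the product. In genes of no other class, a PRDX1 change of at least 1.5-fold was smaller with RANKL for 11 rises and 14 falls. In 64 genes the mean with both agents was beyond that of all other groups, untreated cells included, in the direction of the departure. It was highest in 30 and lowest in 34, with no size threshold, and 29 genes met none of these descriptions. The 64 leave out genes beyond both single agents but not beyond untreated cells, such as Serpinb10 (described below). By these counts most called departures were antagonism, in the sense that a RANKL change was smaller in the presence of PRDX1. Few were synergy in the sense of the highest mean with both agents (30 genes).

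**Figure D2:**
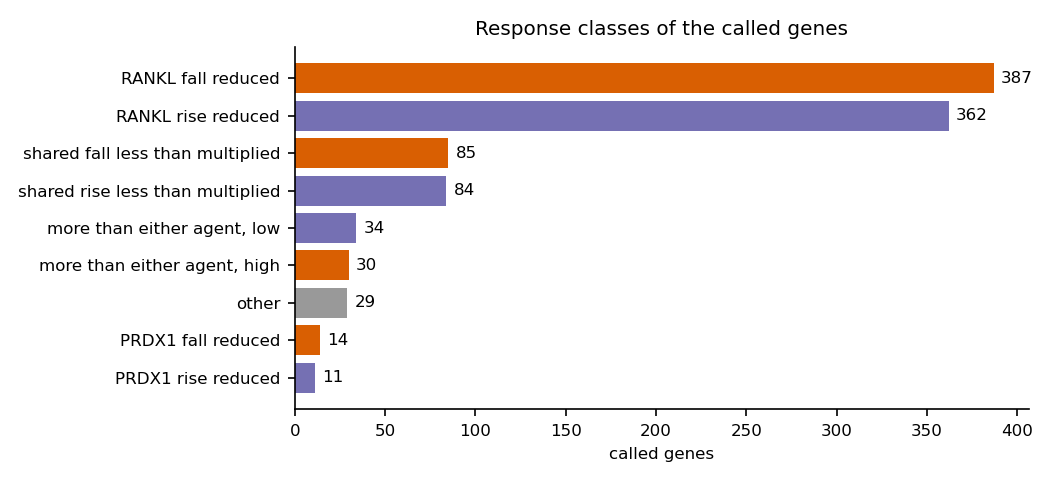
Number of called genes (horizontal axis) in each response class, with departures above in orange, departures below in purple and the mixed class in grey. The bars for RANKL falls (387) and RANKL rises (362) that were smaller in the presence of PRDX1 are far longer than the others.

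Bone resorption genes held the deepest departures. Of 19 members tested 16 were called, all below (against 4.35% of all genes), and the median departure was -1.25. Without Oscar these were 15 of 18 and -1.10. RANKL alone moved the list by a median of 1.52 on the log2 scale, PRDX1 alone by 0.29, and both agents by 0.57. Ctsk (chr3:95499210-95509387, mm10, with this and later gene positions as the table gives them) encodes cathepsin K, the protease that digests bone collagen. It stood at 0.043 and 0.122 FPKM with neither agent, 0.081 and 0.324 with PRDX1, 169 and 167 with RANKL and 8.12 and 8.46 with both. RANKL libraries were far above all others, and the libraries with both agents lay apart from every other group. Multiplied single effects gave 186 FPKM against 8.29 FPKM observed, a departure of -4.33 ± 0.14 (SE, adjusted p = 7.29e-08), which is 20.1-fold below on the FPKM + 1 scale. On the log2 scale the departure was -4.96 with a pseudocount of 0.1 and -5.38 by voom.

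Several of these genes rose with each agent alone and yet did not reach the RANKL level with both. Atp6v0d2 (chr4:19876838-19922566), a subunit of the proton pump that acidifies the resorption pit and takes part in cell fusion, stood at 6.96 and 7.02 FPKM with neither agent, 24.5 and 20.97 with PRDX1, 186 and 168 with RANKL and 27.3 and 25.5 with both. PRDX1 alone raised it, and the libraries with both agents lay close to those with PRDX1 alone. The multiplied expectation was 525 FPKM and the departure -4.26 ± 0.11 (SE, adjusted p = 3.42e-08). Acp5 (chr9:22126727-22130598), the tartrate-resistant acid phosphatase that stains osteoclasts, stood at 24.2 and 23.1 FPKM with neither agent, 53.9 and 53.5 with PRDX1, 1073 and 1137 with RANKL and 158 and 166 with both. Its 4 groups did not overlap, and its departure was -3.91 ± 0.069 (SE, adjusted p = 1.37e-09), 15.1-fold below the expected 2453 FPKM. Mmp14, a membrane-bound metalloproteinase, stood at 1.02 and 0.771 FPKM with neither agent, 13.1 and 14.3 with PRDX1, 69.3 and 75.8 with RANKL and 32.3 and 34.9 with both. PRDX1 alone raised it more than any other gene of the list, and the departure was -4.05 ± 0.12 (SE, adjusted p = 4.42e-08). Src, the kinase of the sealing zone, which was chosen after its values were seen, stood at 0.698 and 0.798 FPKM with neither agent, 4.13 and 4.19 with PRDX1, 37.6 and 41.3 with RANKL and 14.4 and 14.02 with both, with a departure of -2.97 ± 0.1 (SE, adjusted p = 1.47e-07).

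Other resorption genes were close to 0 FPKM without RANKL, and the group with both agents lay far under that with RANKL alone. Mmp9, a gelatinase, stood at 0.321 and 0.538 FPKM with neither agent, 0.929 and 1.14 with PRDX1, 294 and 345 with RANKL and 27.7 and 29.8 with both, and its departure was -3.94 ± 0.14 (SE, adjusted p = 1.59e-07). Car2, the carbonic anhydrase that supplies protons, stood at 0.04 and 0 FPKM with neither agent, 0.094 and 0.1 with PRDX1, 32.6 and 32.4 with RANKL and 3.24 and 2.16 with both, with a departure of -3.3 ± 0.18 (SE, adjusted p = 1.93e-06) that became -6.22 by voom on recovered reads. Oscar, a collagen receptor that co-stimulates osteoclasts, stood at 0 and 0.013 FPKM with neither agent, 0.035 and 0.031 with PRDX1, 8.88 and 11.4 with RANKL and 0.333 and 0.341 with both. Its departure was -3.08 ± 0.17, and -4.86 with a pseudocount of 0.1 and -6.48 by voom. Slc9b2, a sodium and proton exchanger of osteoclasts, stood at 0.03 and 0.107 FPKM with neither agent, 0.115 and 0.127 with PRDX1, 54.96 and 60.6 with RANKL and 3.35 and 3.23 with both, with a departure of -3.84 ± 0.12 (SE, adjusted p = 7.29e-08). Slc9b2 belonged to no list and was named for its size. Calcr, the calcitonin receptor, was under the level filter: it was listed at 0 in all 4 libraries without RANKL, at 1.04 and 1.31 FPKM with RANKL and at 0 and 0.007 with both. No test was made for it.

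**Figure D3:**
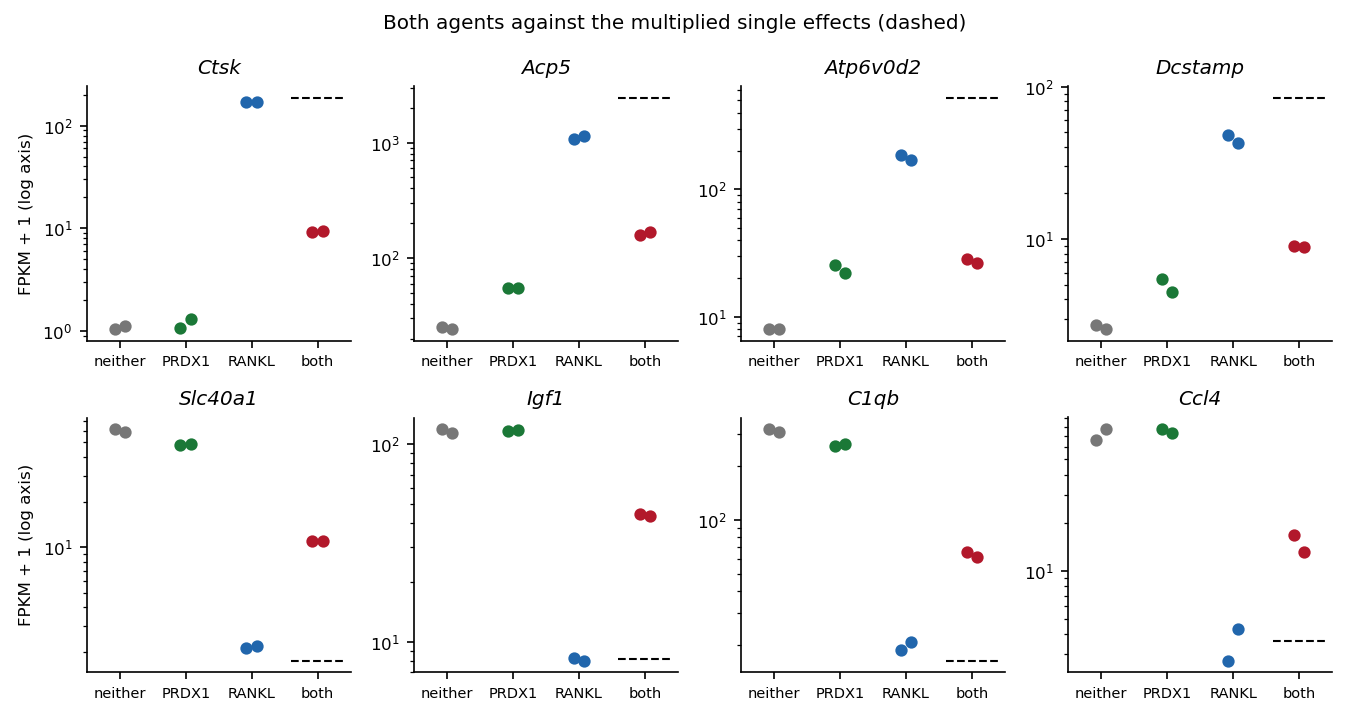
FPKM + 1 of single libraries (points, log axis) by group for 4 genes with departures below (top row) and 4 with departures above (bottom row), with the level that multiplied single effects give as a dashed line (2 libraries a group). In the top row the libraries with both agents sit far under the dashed line, on the FPKM + 1 scale from 9.49-fold for Dcstamp to 20.1-fold for Ctsk, and in the bottom row they sit over it.

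Fusion genes joined the resorption genes in part. Of 13 tested, 5 (38.5%, against 4.35% of all genes) were called, all below, and the median departure was -0.39. Dcstamp (chr15:39745930-39760938), the membrane protein without which precursors do not fuse, stood at 1.72 and 1.55 FPKM with neither agent, 4.42 and 3.49 with PRDX1, 47.2 and 41.4 with RANKL and 7.96 and 7.89 with both. PRDX1 alone raised it, RANKL raised it more, and both agents left it at 7.93 FPKM against an expected 83.7, a departure of -3.25 ± 0.14 (SE, adjusted p = 4.51e-07). Ocstamp, a related membrane protein, stood at 0.208 and 0.123 FPKM with neither agent, 0.196 and 0.276 with PRDX1, 34.7 and 37.1 with RANKL and 4.16 and 3.73 with both, and Siglec15, a sialic acid receptor of osteoclasts, at 0.088 and 0.227 FPKM with neither agent, 0.455 and 0.245 with PRDX1, 13.2 and 13.4 with RANKL and 0.851 and 1.38 with both. Departures were -2.99 ± 0.13 (SE, adjusted p = 4.37e-07) and -2.99 ± 0.19 (SE, adjusted p = 5.69e-06), the second of them -4.74 by voom. Tm4sf19 and Rufy4 belonged to no list and were named for the size of their departures. Tm4sf19, a tetraspan membrane protein, stood at 0.621 and 1.28 FPKM with neither agent, 2.83 and 3.01 with PRDX1, 24.9 and 19.7 with RANKL and 4.89 and 4.77 with both, with a departure of -3.02 ± 0.22 (SE, adjusted p = 1.02e-05).

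Rufy4, an adaptor of autophagy and lysosome traffic, is shown with its promoter as an example of a gene that was near 0 FPKM in all groups but that with RANKL alone. It stood at 0 and 0 FPKM with neither agent, 0 and 0.024 with PRDX1, 11.6 and 11.9 with RANKL and 0.373 and 0.76 with both, and its departure was -3.05 ± 0.18. Because it was listed at 0 in both libraries with neither agent, this value depends on the pseudocount and became -4.37 with a pseudocount of 0.1 and -5.74 by voom. The 300 bases from 250 before to 50 after its RefSeq start (chr1:74125291-74125590, plus strand, GRCm38.p6) are printed 5′ to 3′, with the AP-1 motif TGANTCA in capitals.
Rufy4: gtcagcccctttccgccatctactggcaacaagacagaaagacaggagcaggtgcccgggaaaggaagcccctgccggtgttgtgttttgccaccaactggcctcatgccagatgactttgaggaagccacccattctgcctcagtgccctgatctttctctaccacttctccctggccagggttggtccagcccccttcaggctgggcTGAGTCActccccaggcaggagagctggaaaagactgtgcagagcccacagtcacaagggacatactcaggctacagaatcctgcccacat
The match, which holds on both strands, begins at position -41 from the start.

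Among 20 transcription factors of osteoclast fate 9 were called below and 1 above (50% in all, against 8.85% of all genes), and the median departure was -0.49. Nfatc1 stood at 9.54 and 11.1 FPKM with neither agent, 7.64 and 7.76 with PRDX1, 50.3 and 55.4 with RANKL and 15.6 and 15.7 with both. With PRDX1 alone it was -0.37 from untreated cells, under 1.5-fold, and the level with both agents lay between RANKL and the groups without RANKL, for a departure of -1.32 ± 0.11 (SE, adjusted p = 2.54e-05). Jdp2, an AP-1 family factor needed for osteoclasts, stood at 11.7 and 11.5 FPKM with neither agent, 11.3 and 11.03 with PRDX1, 158 and 173 with RANKL and 34.2 and 35.3 with both, and its departure was -2.16 ± 0.083 (SE, adjusted p = 2.27e-07). Fosl2, another AP-1 subunit, stood at 5.94 and 6.38 FPKM with neither agent, 7.6 and 8.17 with PRDX1, 33.7 and 33.96 with RANKL and 10.2 and 10.1 with both, with a departure of -1.95 ± 0.093 (SE, adjusted p = 8.21e-07). Bhlhe40, a basic helix-loop-helix factor, stood at 2.78 and 3.04 FPKM with neither agent, 7.68 and 7.35 with PRDX1, 29.97 and 34.2 with RANKL and 16.7 and 16.6 with both. It rose with each agent alone, and its departure was -2.03 ± 0.11 (SE, adjusted p = 1.87e-06). The single call above was Mef2c, a MADS-box factor chosen after its values were seen, at 26.95 and 28.5 FPKM with neither agent, 18.4 and 18.3 with PRDX1, 5.82 and 5.57 with RANKL and 9.86 and 9.71 with both and a departure of 1.26 ± 0.086 (SE, adjusted p = 8.12e-06).

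Fos, the AP-1 subunit that acts before NFATc1, stood at 13.8 and 13.8 FPKM with neither agent, 44.5 and 38.8 with PRDX1, 117 and 127 with RANKL and 128 and 139 with both. With RANKL present, PRDX1 made no difference past the test: PRDX1 + RANKL minus no PRDX1 + RANKL was 0.13 ± 0.072 (adjusted p = 0.182). PRDX1 alone raised it by 1.52 on the log2 scale, and the departure was -1.4 ± 0.1 (SE, adjusted p = 1.12e-05). Of the 13 repressors of osteoclast differentiation, 2 were called above and 2 below (30.8% in all, against 8.85% of all genes), with a median of -0.083. Irf8, an interferon regulatory factor that holds cells in the macrophage state, stood at 47.8 and 50.3 FPKM with neither agent, 59.5 and 59.4 with PRDX1, 7.77 and 7.72 with RANKL and 23.9 and 25.4 with both, with a departure of 1.28 ± 0.078 (SE, adjusted p = 3.81e-06). Rbpj, the Notch factor that restrains osteoclasts, stood at 34.7 and 34.6 FPKM with neither agent, 29.1 and 28.7 with PRDX1, 20.8 and 18.6 with RANKL and 33.03 and 32.5 with both, with a departure of 0.96 ± 0.086 (SE, adjusted p = 4.25e-05). Its level with both agents was close to that of untreated cells. Id2, an inhibitor of helix-loop-helix factors, stood at 52.7 and 58.6 FPKM with neither agent, 215 and 193 with PRDX1, 63.1 and 59.3 with RANKL and 136 and 135 with both, and its rise by PRDX1 was smaller in the presence of RANKL, with a departure of -0.72 ± 0.095 (SE, adjusted p = 0.000464).

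Of 20 genes of RANK and ITAM signaling 1 (5%) was called, below, a share near the 4.35% of all genes, and the median departure was -0.075. That gene was Cblb, a ubiquitin ligase, at 2.53 and 3.27 FPKM with neither agent, 5.28 and 5.42 with PRDX1, 4.76 and 4.75 with RANKL and 5.15 and 5.19 with both and a departure of -0.61 ± 0.14 (SE, adjusted p = 0.00961). The call was lost, at -0.47, without no PRDX1 + no RANKL replicate 1. Tnfrsf11a, which encodes RANK, stood at 32.3 and 32.6 FPKM with neither agent, 34.96 and 34.04 with PRDX1, 59.4 and 58.05 with RANKL and 49.5 and 49.6 with both. Its departure of -0.33 ± 0.067 (SE, adjusted p = 0.00609) was under 1.5-fold. Tlr4 stood at 24.4 and 23.2 FPKM with neither agent, 21.2 and 22.1 with PRDX1, 16.7 and 14.2 with RANKL and 20.6 and 19.4 with both, with a departure of 0.48 ± 0.11 (SE, adjusted p = 0.0106), also under 1.5-fold except without no PRDX1 + RANKL replicate 1 (0.6). Endogenous Prdx1 stood at 1294 and 1221 FPKM with neither agent, 1779 and 1770 with PRDX1, 620.0 and 567 with RANKL and 1232 and 1182 with both, with a departure of 0.53 ± 0.072 (SE, adjusted p = 0.000575) that again fell short of the fold threshold. It passed after quantile normalization (0.85) and without no PRDX1 + RANKL replicate 1 (0.59).

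Some genes lay close to the product of the single effects. Acod1, which makes itaconate, stood at 1.53 and 1.23 FPKM with neither agent, 9.49 and 10.4 with PRDX1, 2.37 and 2.76 with RANKL and 14.8 and 14.8 with both. Multiplied effects gave 15.4 FPKM against 14.8 observed, and the 95% interval of the departure was -0.34 to 0.24 (adjusted p = 0.828). For Irf7, the interferon master factor, levels were 156 and 170.1 FPKM with neither agent, 570.3 and 576 with PRDX1, 176 and 194 with RANKL and 594 and 599 with both, and the interval was -0.3 to 0.054 (adjusted p = 0.31). For the NF-kB subunits Rela and Nfkb1 the intervals were -0.18 to 0.23 (adjusted p = 0.874) and -0.18 to 0.18 (adjusted p = 0.978). These intervals leave out departures of 1.5-fold in either direction. Ifnb1 and Il6 were under the level filter, with at most 2 and 6 reads in any library.

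In several inflammatory genes the level with both agents was that of 1 agent. Of 25 genes responsive to TLR4 ligands 6 were called below and 2 above (32% in all, against 8.85% of all genes), and the median departure was -0.051 (-0.12 without Il1b, which passed the level filter through 1 group), which became -0.55 with a pseudocount of 0.1. Ccl5 (chr11:83525779-83530518), a chemokine for T cells and monocytes from the chemokine list, stood at 1.8 and 1.96 FPKM with neither agent, 38.9 and 39.3 with PRDX1, 8.22 and 9.13 with RANKL and 40.4 and 41.1 with both. RANKL alone raised it, and with both agents it stood near the level of PRDX1 alone: PRDX1 + RANKL minus PRDX1 + no RANKL was 0.059 ± 0.067 (adjusted p = 0.518). The departure was -1.69 ± 0.095 (SE, adjusted p = 2.25e-06). Cfb, complement factor B, stood at 1.49 and 1.42 FPKM with neither agent, 46.7 and 46.2 with PRDX1, 4.1 and 5.02 with RANKL and 45.5 and 46.7 with both. Saa3, an acute phase protein, stood at 3.99 and 2.33 FPKM with neither agent, 60.8 and 69.9 with PRDX1, 10.1 and 7.72 with RANKL and 62.8 and 56.8 with both. Both were likewise near the PRDX1 level, with departures of -1.19 ± 0.11 (SE, adjusted p = 6.27e-05) and -1.39 ± 0.24 (SE, adjusted p = 0.00252). Cd274, the ligand of PD-1 and a member of the dendritic cell maturation list, stood at 3.45 and 3.46 FPKM with neither agent, 14.8 and 15.3 with PRDX1, 10.7 and 9.83 with RANKL and 16.7 and 17.4 with both, and its departure was -1.17 ± 0.095 (SE, adjusted p = 2.36e-05).

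Nfkbia and Junb, early targets of both receptors, stood near the RANKL level instead. Nfkbia, the inhibitor IkB-alpha, stood at 27.96 and 24.7 FPKM with neither agent, 56.95 and 58.2 with PRDX1, 179 and 184 with RANKL and 145 and 145 with both, with a departure of -1.42 ± 0.083 (SE, adjusted p = 2.81e-06). Junb, an AP-1 subunit, stood at 24.7 and 24.1 FPKM with neither agent, 58.4 and 55.95 with PRDX1, 152 and 174 with RANKL and 132 and 136 with both, with a departure of -1.47 ± 0.09 (SE, adjusted p = 3.81e-06). In both, each agent alone raised the gene and the libraries with both agents were lower than those with RANKL by less than 1.5-fold. Cd14, the co-receptor that hands lipopolysaccharide to TLR4, ran the other way. It stood at 468 and 453 FPKM with neither agent, 401 and 406 with PRDX1, 146 and 147 with RANKL and 327 and 319.7 with both, and its departure was 1.33 ± 0.055 (SE, adjusted p = 3.46e-07). The summed neutrophil markers, which include S100a9, were higher with PRDX1, as given above. Mmp8, another of these markers, did not rise with PRDX1 in the absence of RANKL (values below). S100a9, a calcium-binding protein of myeloid cells, stood at 5.07 and 3.55 FPKM with neither agent, 21.5 and 17.5 with PRDX1, 5.58 and 5.91 with RANKL and 15.8 and 12.8 with both, with a departure of -0.78 ± 0.21 (SE, adjusted p = 0.0216). The call was lost with no level filter and without no PRDX1 + no RANKL replicate 2 (-0.57), PRDX1 + no RANKL replicate 1 (-0.64), no PRDX1 + RANKL replicate 2 (-0.74) or PRDX1 + RANKL replicate 2 (-0.64).

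Macrophage identity genes and scavenger receptors departed above. The macrophage markers summed above were likewise lowest with RANKL and intermediate with both agents, and their part in this result was not tested. Of 27 tested 18 were called above and 1 below (70.4% in all, against 8.85% of all genes), and the median departure was 1.07. RANKL alone moved the list by a median of -1.51, PRDX1 alone by 0.31 and both agents by -0.57. C1qb, a chain of the complement initiator C1q, stood at 319.9 and 310.1 FPKM with neither agent, 257 and 263 with PRDX1, 17.6 and 19.9 with RANKL and 64.7 and 61.1 with both. RANKL lowered it, and the libraries with both agents lay between RANKL and the groups without it, with a departure of 1.97 ± 0.084 (SE, adjusted p = 3.98e-07). Stab1, a clearance receptor, stood at 168 and 170.4 FPKM with neither agent, 97.9 and 107 with PRDX1, 19.2 and 20.01 with RANKL and 50.3 and 55.3 with both. PRDX1 lowered it in the absence of RANKL and the gene was higher with PRDX1 in the presence of RANKL, so that the departure was 2.11 ± 0.086 (SE, adjusted p = 3.29e-07). Mrc1, the mannose receptor, stood at 248 and 216 FPKM with neither agent, 104 and 109.5 with PRDX1, 22.02 and 18.5 with RANKL and 37.3 and 36.5 with both, with a departure of 1.95 ± 0.12 (SE, adjusted p = 3.81e-06). Gas6, a bridging ligand for dead cells, stood at 175 and 176 FPKM with neither agent, 109 and 114 with PRDX1, 10.9 and 11.5 with RANKL and 26.4 and 27.8 with both, with a departure of 1.86 ± 0.075 (SE, adjusted p = 2.9e-07).

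Fcgr1, the high-affinity IgG receptor, depended on the scale. It stood at 112 and 113 FPKM with neither agent, 163 and 161 with PRDX1, 9.07 and 7.9 with RANKL and 50.1 and 52.4 with both. On the log scale its departure was 1.95 ± 0.087 (SE, adjusted p = 4.96e-07), but summed differences in FPKM gave -6.41, a departure below. The call below among these 27 genes was Clec4a2, a lectin receptor, at -0.62, named after its values were seen and lost without no PRDX1 + no RANKL replicate 2 (-0.53), PRDX1 + no RANKL replicate 2 (-0.58) or no PRDX1 + RANKL replicate 1 (-0.56). Slc40a1, of the iron list, and Igf1 and Pf4, of no list, were among the largest departures above. Slc40a1, ferroportin, the exporter of iron, stood at 60.4 and 57.6 FPKM with neither agent, 47.04 and 47.7 with PRDX1, 1.15 and 1.2 with RANKL and 10.1 and 9.95 with both, with a departure of 2.65 ± 0.082 (SE, adjusted p = 6.8e-08), 6.27-fold above on the FPKM + 1 scale. It was 3.3 with a pseudocount of 0.1 and 3.39 by voom on the log2 scale. Igf1, a growth factor, stood at 118 and 113 FPKM with neither agent, 116 and 117 with PRDX1, 7.26 and 6.99 with RANKL and 43.6 and 42.1 with both, with a departure of 2.43 ± 0.07 (SE, adjusted p = 4.42e-08). Pf4, a chemokine of platelets and macrophages, stood at 673 and 589.8 FPKM with neither agent, 809.7 and 763 with PRDX1, 42.9 and 38.9 with RANKL and 263 and 240.4 with both, with a departure of 2.28 ± 0.1 (SE, adjusted p = 6.1e-07).

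Slco2b1, an organic anion transporter, had the largest departure above with a pseudocount of 1. With a pseudocount of 0.1 the named genes Slc40a1 (3.3), Mir7029 (6.53), Mir7062 (4.33) and Mir7045 (3.17) exceeded it (3.14). It stood at 18.1 and 17.2 FPKM with neither agent, 1.82 and 1.73 with PRDX1, 0.118 and 0.232 with RANKL and 0.164 and 0.137 with both. RANKL alone had already brought it to near 0, and both agents left it there. Multiplying the falls gives a level below 0 on this scale (-0.825 FPKM), which no library can reach. The departure was 2.72 ± 0.13 (SE, adjusted p = 9.82e-07), and a true product of the falls cannot be told apart from the floor at 0 here. Of the 527 genes called above, 29 (5.5%) had such an expectation. Its promoter window (chr7:99711291-99711590, minus strand, GRCm38.p6) is printed 5′ to 3′ as an example of a shared fall, with GAGGAAGT (PU.1, a macrophage factor) and TGANTCA (AP-1) in capitals, where they overlap by 1 base.
Slco2b1: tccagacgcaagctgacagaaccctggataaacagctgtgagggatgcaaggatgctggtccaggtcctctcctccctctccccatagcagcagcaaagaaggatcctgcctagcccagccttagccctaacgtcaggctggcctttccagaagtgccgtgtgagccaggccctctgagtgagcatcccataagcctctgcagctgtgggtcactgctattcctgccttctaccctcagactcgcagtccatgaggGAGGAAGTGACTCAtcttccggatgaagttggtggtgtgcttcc
The first begins at position 6 and the second at position 13 from the start.

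Chemokines were called above in 10 of 16 and below in 2 (75% in all, against 8.85% of all genes), with a median departure of 0.69. Without Cxcl11 these were 9 of 15, 2 and 0.75. Ccl4, a chemokine for monocytes and T cells, stood at 64.4 and 75.7 FPKM with neither agent, 76.1 and 71.5 with PRDX1, 1.74 and 3.31 with RANKL and 15.8 and 12.2 with both. RANKL lowered it, PRDX1 alone differed from untreated cells by 0.078, and both agents gave a level in between, for a departure of 2.04 ± 0.26 (SE, adjusted p = 0.000401). Ccl3, its neighbour in function, stood at 43.6 and 44.9 FPKM with neither agent, 69.4 and 67.8 with PRDX1, 6.07 and 5.42 with RANKL and 24.7 and 22.8 with both. Its departure was 1.25 ± 0.092 (SE, adjusted p = 1.2e-05) on the log scale and -6.34 FPKM in summed differences, so the sign turned with the scale. The calls below were Ccl5, given above, and Ccl9, at -0.74, named after its values were seen. Cxcl10 and Cxcl11 belonged to the small group that went beyond either agent.

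Cxcl10 (chr5:92346639-92348889), an interferon-inducible chemokine for activated T cells, ended higher with both agents than with either. It stood at 13.3 and 20.1 FPKM with neither agent, 14.9 and 17.7 with PRDX1, 117 and 99.01 with RANKL and 244 and 249.9 with both. PRDX1 alone differed from untreated cells by -0.0078, and in the presence of RANKL it was higher by 1.19 ± 0.15 (adjusted p = 0.000176). The departure was 1.2 ± 0.22 (SE, adjusted p = 0.00333), 2.3-fold above the expected 107 FPKM. The promoter window (chr5:92348840-92349139, minus strand, GRCm38.p6) is shown because both NF-kB and interferon factors are known to act there. Capitals mark the NF-kB motif and the interferon-stimulated response element (ISRE, searched as GAAANNGAA).
Cxcl10: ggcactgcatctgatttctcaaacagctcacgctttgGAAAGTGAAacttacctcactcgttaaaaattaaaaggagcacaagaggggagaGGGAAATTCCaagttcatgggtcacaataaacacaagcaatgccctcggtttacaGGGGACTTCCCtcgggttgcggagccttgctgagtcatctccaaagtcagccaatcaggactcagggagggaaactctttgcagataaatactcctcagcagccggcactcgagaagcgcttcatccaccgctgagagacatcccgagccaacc
The ISRE begins at position -213 from the start and the NF-kB matches at positions -159 and -104, the last of which overlaps another match at -103. Matches to TGANTCA in this window are not in capitals.

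Serpinb2, an inhibitor of plasminogen activators, was close to 0 FPKM except with both agents. It stood at 0.207 and 0.329 FPKM with neither agent, 0.553 and 0.736 with PRDX1, 0.392 and 0.236 with RANKL and 3.5 and 2.94 with both, with a departure of 1.31 ± 0.17, and 1.999 with a pseudocount of 0.1 and 2.16 by voom. Both libraries with both agents lay over all others. Its promoter window (chr1:107511173-107511472, plus strand, GRCm38.p6) is given for comparison with that of Cxcl10, with TGANTCA in capitals.
Serpinb2: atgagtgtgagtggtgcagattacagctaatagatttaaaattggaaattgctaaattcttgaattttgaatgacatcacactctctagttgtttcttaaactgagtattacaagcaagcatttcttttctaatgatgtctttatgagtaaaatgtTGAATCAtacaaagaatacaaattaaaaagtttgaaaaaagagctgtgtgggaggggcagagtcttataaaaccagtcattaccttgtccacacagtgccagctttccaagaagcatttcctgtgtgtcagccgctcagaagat
The match, which holds on both strands, begins at position -94 from the start.

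Other genes of this group had smaller departures and were chosen here after their values were seen, except Ifi44l and Slc7a5. Clec4e, the lectin receptor Mincle, stood at 34.2 and 33.1 FPKM with neither agent, 31.1 and 32.3 with PRDX1, 22.3 and 20.3 with RANKL and 45.6 and 46.7 with both, with a departure of 1.17 ± 0.083 (SE, adjusted p = 1.01e-05). Aoah, an enzyme that inactivates lipopolysaccharide, stood at 5.91 and 5.79 FPKM with neither agent, 8.01 and 8.15 with PRDX1, 2.82 and 2.82 with RANKL and 10.1 and 10.2 with both, with a departure of 1.14 ± 0.1 (SE, adjusted p = 2.93e-05). Tlr2, the receptor for bacterial lipoproteins, stood at 43.5 and 39.6 FPKM with neither agent, 45.6 and 44.5 with PRDX1, 43.4 and 41.2 with RANKL and 70.9 and 69.2 with both. Tlr2 differed from untreated cells by 0.12 with PRDX1 alone, and both together placed it above every other library, with a departure of 0.6 ± 0.081 (SE, adjusted p = 0.00056). That call was lost without no PRDX1 + no RANKL replicate 1 (0.53), PRDX1 + no RANKL replicate 2 (0.58), no PRDX1 + RANKL replicate 2 (0.56) or PRDX1 + RANKL replicate 1 (0.58). Ifi44l, an interferon-stimulated gene, stood at 31.2 and 35.1 FPKM with neither agent, 49.6 and 47.9 with PRDX1, 22.3 and 18.9 with RANKL and 51.6 and 47.03 with both, with a departure of 0.68 ± 0.12 (SE, adjusted p = 0.00283), lost without no PRDX1 + RANKL replicate 2 (0.56). PRDX1 + RANKL minus PRDX1 + no RANKL was 0.016 ± 0.085 for it (adjusted p = 0.899). Slc7a5, an amino acid transporter, stood at 25.9 and 30.04 FPKM with neither agent, 24.3 and 23.2 with PRDX1, 24.5 and 26.95 with RANKL and 32.2 and 35.9 with both, with a departure of 0.61 ± 0.12 (SE, adjusted p = 0.00449). The call was lost without no PRDX1 + no RANKL replicate 2 (0.51), PRDX1 + no RANKL replicate 2 (0.58), no PRDX1 + RANKL replicate 1 (0.55) or PRDX1 + RANKL replicate 2 (0.54). Of the 30 genes 6 were at least 1.5-fold over each single agent, with an adjusted p under 0.05 in both comparisons.

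**Figure D4:**
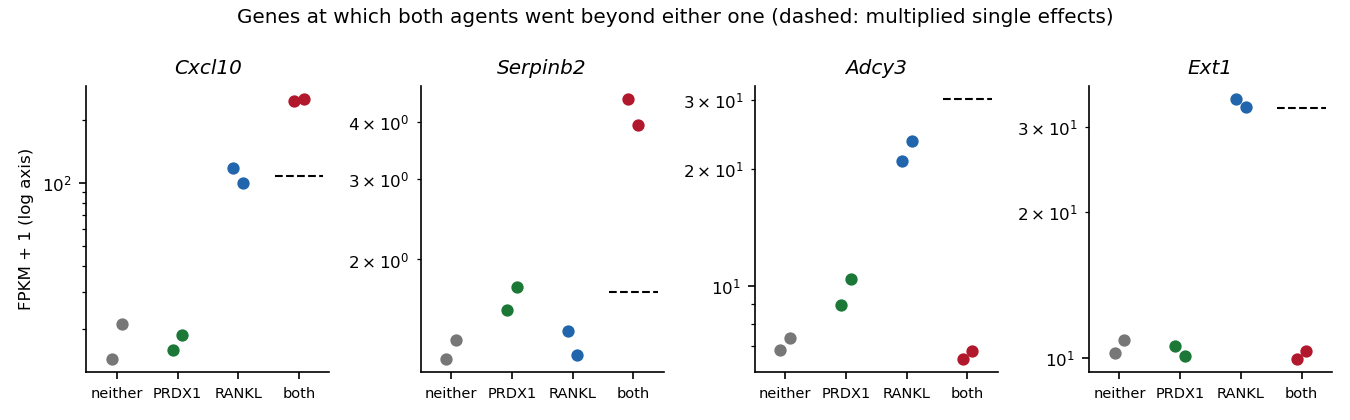
FPKM + 1 of single libraries (points, log axis, 2 libraries a group) for 4 genes, with multiplied single effects as a dashed line. Their mean with both agents was the highest or lowest of all groups. For Ext1 the libraries with both agents overlapped those with PRDX1 alone and those with neither agent. Cxcl10 and Serpinb2 lie over the line with both agents (244 to 250 and 2.94 to 3.5 FPKM), and Adcy3 and Ext1 lie under it (5.48 to 5.82 and 8.94 to 9.36 FPKM).

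In all 34 genes that ended lowest with both agents the mean was higher with RANKL alone than in untreated cells, in 14 of them by at least 1.5-fold. Adcy3, an adenylyl cyclase, stood at 5.85 and 6.36 FPKM with neither agent, 7.95 and 9.44 with PRDX1, 19.96 and 22.6 with RANKL and 5.48 and 5.82 with both. RANKL raised it, and with both agents it lay under all other libraries, for a departure of -2.19 ± 0.13 (SE, adjusted p = 3.57e-06). Ext1, a polymerase of heparan sulfate, stood at 9.25 and 9.91 FPKM with neither agent, 9.59 and 9.09 with PRDX1, 33.2 and 31.96 with RANKL and 8.94 and 9.36 with both. RANKL alone set it apart and the other groups overlapped, with a departure of -1.69 ± 0.093 (SE, adjusted p = 1.95e-06). Ppm1j, a phosphatase, stood at 1.13 and 1.29 FPKM with neither agent, 1.34 and 1.01 with PRDX1, 3.58 and 4.17 with RANKL and 1.13 and 0.949 with both, with a departure of -1.23 ± 0.16 (SE, adjusted p = 0.000477). Ckb, the brain-type creatine kinase that osteoclasts use and a member of the bone resorption list, was chosen after its values were seen. It stood at 309 and 328 FPKM with neither agent, 242 and 241 with PRDX1, 312 and 363 with RANKL and 127 and 137 with both, and with both agents it was lower than with any other treatment. Its departure was -0.95 ± 0.1 (SE, adjusted p = 9.41e-05). Of the 34 genes 3 were at least 1.5-fold under each single agent, with an adjusted p under 0.05 in both comparisons.

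Sterol synthesis genes departed above. Of 24 tested 15 (62.5%, against 4.5% of all genes) were called above and none below, and all 24 departures were over 0, with a median of 0.68. PRDX1 alone moved the list by a median of -0.77, RANKL alone by -0.83 and both agents by -0.88. Sqle, squalene epoxidase, stood at 46.7 and 50.3 FPKM with neither agent, 24.7 and 25.5 with PRDX1, 18.9 and 19.5 with RANKL and 20.2 and 20.5 with both. All 3 treated groups lay below the untreated libraries and close to each other, and the departure was 1.003 ± 0.08 (SE, adjusted p = 2.18e-05). Cyp51, the sterol demethylase, stood at 29.3 and 31.01 FPKM with neither agent, 13.6 and 12.9 with PRDX1, 11.2 and 10.1 with RANKL and 9.57 and 9.72 with both, with a departure of 0.995 ± 0.1 (SE, adjusted p = 7.21e-05). Insig1, the sterol sensor that retains SREBP, stood at 38.2 and 35.9 FPKM with neither agent, 15.98 and 16.8 with PRDX1, 11.9 and 11.7 with RANKL and 10.3 and 9.97 with both, with a departure of 0.93 ± 0.086 (SE, adjusted p = 5.35e-05). Acat2, which makes the first intermediate of the pathway, stood at 16.6 and 18.3 FPKM with neither agent, 7.04 and 7.86 with PRDX1, 11.9 and 11.8 with RANKL and 10.3 and 9.07 with both, with a departure of 0.86 ± 0.12 (SE, adjusted p = 0.000579).

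In the list of cholesterol efflux and liver X receptor targets 5 of 18 genes were called above and 2 below (38.9% in all, against 8.85% of all genes), with a median departure of 0.35, and 4 of 17 above without Scd1. Scd2, a stearoyl-CoA desaturase, stood at 49.00 and 60.1 FPKM with neither agent, 7.41 and 7.57 with PRDX1, 14.1 and 15.4 with RANKL and 6.09 and 6.11 with both, with a departure of 1.55 ± 0.13 (SE, adjusted p = 2.54e-05). Scd1, its close relative, stood at 3.05 and 3.71 FPKM with neither agent, 0.449 and 0.364 with PRDX1, 0.607 and 0.449 with RANKL and 0.426 and 0.346 with both, and its departure was 1.5 ± 0.17 (2.42 with a pseudocount of 0.1 and 2.65 by voom), with an expectation below 0 (-0.509 FPKM). Ch25h, which makes 25-hydroxycholesterol, stood at 26.1 and 29.4 FPKM with neither agent, 48.01 and 46.7 with PRDX1, 1.37 and 1.53 with RANKL and 9.81 and 9.98 with both. Its departure was 1.4 ± 0.1 (SE, adjusted p = 1.16e-05) on the log scale and -11.2 FPKM in summed differences, a turn of sign.

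Of 27 genes of the tricarboxylic acid cycle 5 (18.5%, against 4.35% of all genes) were called below and none above, with 25 departures under 0 and a median of -0.48. RANKL alone moved the list by a median of 0.68, PRDX1 alone by -0.15 and both agents by 0.11. Sdhb, a subunit of succinate dehydrogenase, stood at 121 and 113 FPKM with neither agent, 110.0 and 115 with PRDX1, 186 and 189 with RANKL and 117 and 113 with both, with a departure of -0.64 ± 0.068 (SE, adjusted p = 0.000126). Mdh2, the mitochondrial malate dehydrogenase, stood at 162 and 169 FPKM with neither agent, 156 and 152 with PRDX1, 300.4 and 329 with RANKL and 185 and 189.7 with both, with a departure of -0.64 ± 0.072 (SE, adjusted p = 0.000184), lost without no PRDX1 + RANKL replicate 2 (-0.57). For Sdhb, the libraries with both agents lay among those without RANKL, and for Mdh2 a little over them.

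Of 72 respiratory chain genes 4 (5.56%) were called, all below and all of complex III, a share near the 4.35% of all genes called below, with 71 departures under 0 and a median of -0.38. Cyc1, cytochrome c1, stood at 62.7 and 66.2 FPKM with neither agent, 69.8 and 62.6 with PRDX1, 137 and 138 with RANKL and 79.3 and 80.8 with both, with a departure of -0.81 ± 0.081 (SE, adjusted p = 8.64e-05). Uqcrfs1, the Rieske protein, stood at 59.3 and 65.1 FPKM with neither agent, 58.7 and 59.4 with PRDX1, 128 and 123 with RANKL and 72.2 and 71.4 with both, with a departure of -0.73 ± 0.076 (SE, adjusted p = 0.000113). Uqcr10, a small subunit, stood at 116 and 123 FPKM with neither agent, 111 and 121 with PRDX1, 203 and 199 with RANKL and 118 and 117 with both, with a departure of -0.72 ± 0.074 (SE, adjusted p = 9.72e-05). Of 78 mitochondrial ribosomal proteins 6 (7.69%) were called below, against 4.35% of all genes, with a median of -0.28, led by Mrps6 at -1.01 ± 0.12 (SE, adjusted p = 0.000283), Mrpl52 at -0.92 ± 0.077 and Mrps22 at -0.73 ± 0.082. Of 75 cytosolic ribosomal proteins 1 (1.33%) was called below, Rpl30 at -0.81 ± 0.079 (SE, adjusted p = 7.48e-05), with a median of -0.30 that became -0.16 under quantile normalization. Most single members of these lists were under the fold threshold.

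**Figure D5:**
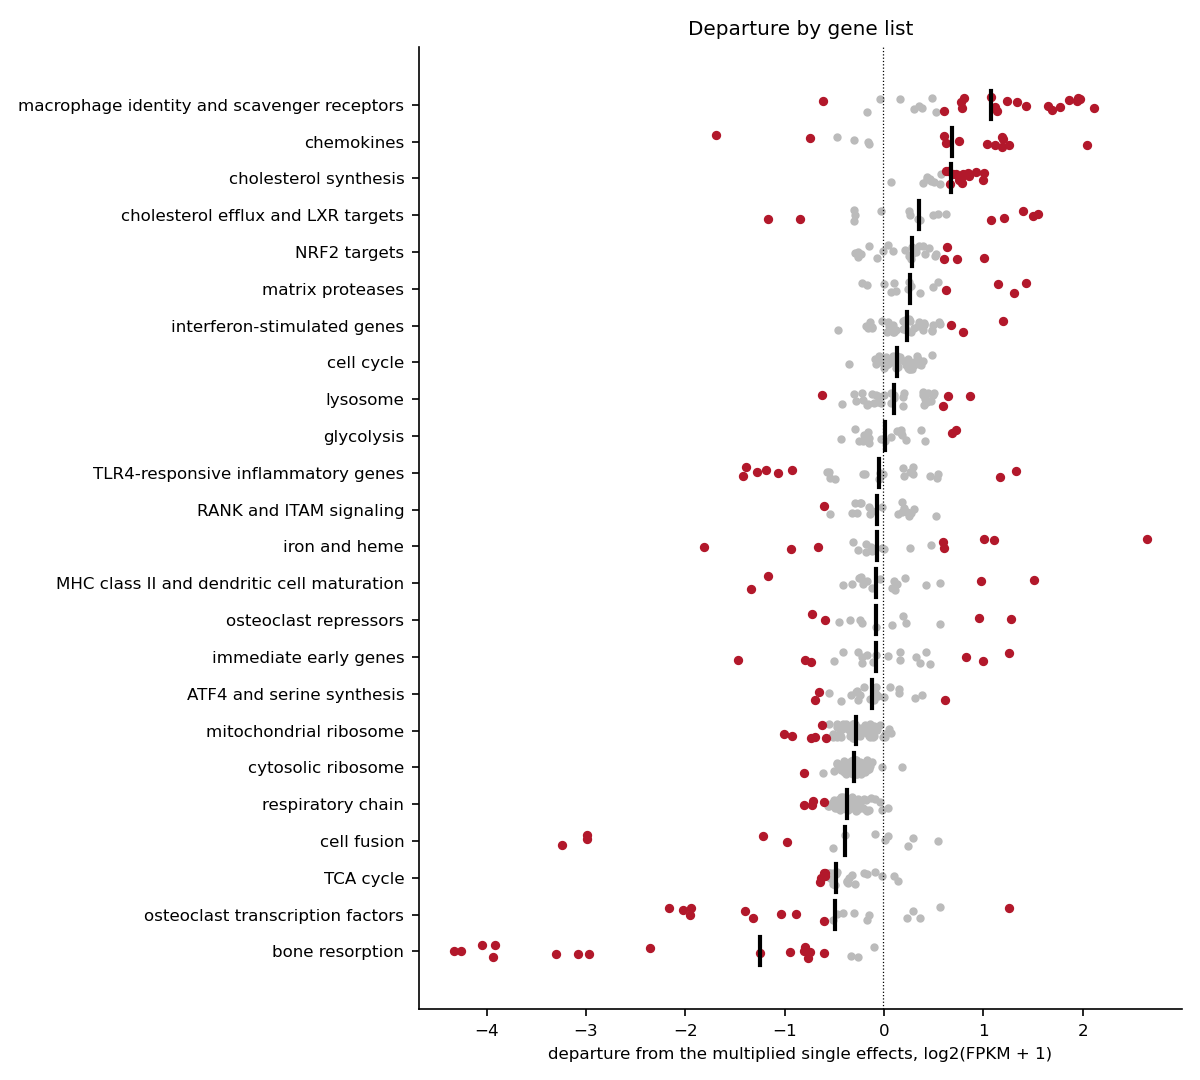
Departure from multiplied single effects, in log2(FPKM + 1), of each tested member (points, red where called) of 24 gene lists, with the list median as a black bar and the median of all genes as a dotted line. Bone resorption lies lowest (median -1.25) and macrophage identity highest (median 1.07), and all 24 sterol synthesis genes lie to the right of 0.

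Of 18 genes of iron and heme 5 were called above and 3 below (44.4% in all, against 8.85% of all genes, median -0.075), or 5 and 2 of 17 without Steap4. Of 25 NRF2 targets 4 (16%, against 4.5% of all genes) were called above and none below (median 0.28). Fth1, the heavy chain of ferritin, stood at 7470 and 7493 FPKM with neither agent, 10385 and 10519 with PRDX1, 2629 and 2773 with RANKL and 7603 and 7571 with both. RANKL lowered it, and with both agents it stood near the untreated level, for a departure of 1.01 ± 0.055 (SE, adjusted p = 1.9e-06). Slc11a1, a metal transporter of phagosomes, stood at 183 and 177 FPKM with neither agent, 242 and 241 with PRDX1, 55.8 and 59.5 with RANKL and 165 and 172 with both, with a departure of 1.11 ± 0.068 (SE, adjusted p = 3.81e-06). Steap4, a metalloreductase, was near 0 FPKM except with RANKL alone, at 0.043 and 0 FPKM with neither agent, 0.041 and 0.036 with PRDX1, 2.91 and 2.65 with RANKL and 0.152 and 0.046 with both, with a departure of -1.81 ± 0.16, and -4.12 with a pseudocount of 0.1 and -6.77 by voom. Hmox1, heme oxygenase, stood at 229 and 224 FPKM with neither agent, 421 and 422 with PRDX1, 50.2 and 59.00 with RANKL and 171 and 171 with both. Its departure was 0.74 ± 0.091 (SE, adjusted p = 0.000333) on the log scale and -79.0 FPKM in summed differences, so that its direction turned with the scale. Gstm1, a glutathione transferase, had a departure of 0.63 ± 0.12 (SE, adjusted p = 0.005), lost without PRDX1 + no RANKL replicate 2 (0.57), no PRDX1 + RANKL replicate 1 (0.49) or PRDX1 + RANKL replicate 2 (0.58).

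Of 40 interferon-stimulated genes 3 (7.5%, against 4.5% of all genes called above) were called above and none below, with 33 departures over 0 and a median of 0.23. Mx1, an antiviral GTPase, stood at 12.8 and 15.1 FPKM with neither agent, 22.5 and 23.8 with PRDX1, 4.47 and 3.37 with RANKL and 17.5 and 16.7 with both, with a departure of 1.19 ± 0.15 (SE, adjusted p = 0.000398). Stat2, which carries the interferon signal, had a departure of 0.8 ± 0.13 (SE, adjusted p = 0.00174). Of 20 genes of MHC class II and dendritic cell maturation 2 were called above and 2 below (20% in all, against 8.85% of all genes, median -0.080). Tnfsf9, a costimulatory ligand, stood at 7.61 and 7.99 FPKM with neither agent, 4.45 and 5.83 with PRDX1, 1.79 and 2.15 with RANKL and 5.34 and 4.44 with both, with a departure of 1.51 ± 0.17 (SE, adjusted p = 0.000192), and Il4i1, an amino acid oxidase, had -1.34 ± 0.13 (SE, adjusted p = 8.67e-05), or -2.08 with a pseudocount of 0.1 and -2.26 by voom. Of 16 matrix proteases and inhibitors 4 (25%, against 4.5% of all genes) were called above (median 0.26), or 3 of 14 without Serpinb2 and Adam19, which passed the level filter through 1 group. They were led by Mmp8, neutrophil collagenase and one of the neutrophil markers summed above, at 11.7 and 10.5 FPKM with neither agent, 9.97 and 10.1 with PRDX1, 3.53 and 2.44 with RANKL and 9.16 and 8.31 with both and a departure of 1.43 ± 0.17 (SE, adjusted p = 0.000236), and Plau, urokinase, at 1.14 ± 0.066 (SE, adjusted p = 2.64e-06).

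Of 21 immediate early genes 3 were called above and 3 below (28.6%, against 8.85% of all genes, median -0.085). Atf3, a stress factor, stood at 34.5 and 37.5 FPKM with neither agent, 68.6 and 67.9 with PRDX1, 4.99 and 4.35 with RANKL and 25.2 and 23.4 with both. Its departure was 1.25 ± 0.1 (SE, adjusted p = 2.27e-05) on the log scale and -12.7 FPKM in summed differences. Dusp6, a phosphatase of ERK, had a departure of 0.99 ± 0.073 (SE, adjusted p = 1.23e-05). Of 36 lysosomal genes 3 were called above and 1 below (11.1%, against 8.85% of all genes, median 0.097). Among them were Ctsb, cathepsin B, at 0.86 ± 0.06 (SE, adjusted p = 8.9e-06) and Ctse, cathepsin E, at 0.64 ± 0.1 (SE, adjusted p = 0.00132). The call below was Smpd1, acid sphingomyelinase, at -0.63 ± 0.11 (SE, adjusted p = 0.00299). Ctse lost its call without no PRDX1 + no RANKL replicate 1 (0.56) or no PRDX1 + RANKL replicate 1 (0.57), and Smpd1 without PRDX1 + no RANKL replicate 1 (-0.53) or no PRDX1 + RANKL replicate 2 (-0.55). Of 21 glycolysis genes 2 were called above (9.52%, against 4.5% of all genes called above, median 0.010). They were Hk3, a hexokinase, at 0.72 ± 0.079 (SE, adjusted p = 0.000148) and Slc2a3, a glucose transporter, at 0.69 ± 0.12 (SE, adjusted p = 0.00227). Of 22 genes of ATF4 and serine synthesis 2 were called below and 1 above (13.6%, against 8.85% of all genes, median -0.12). Those below were Chac1, a glutathione-degrading enzyme, at -0.7 ± 0.15 (SE, adjusted p = 0.00711) and Phgdh, the first enzyme of serine synthesis, at -0.65 ± 0.15 (SE, adjusted p = 0.0121). Without no PRDX1 + RANKL replicate 2 Chac1 (-0.55) and Phgdh (-0.47) lost their calls, and Phgdh also lost it with no level filter and without PRDX1 + RANKL replicate 2 (-0.61). None of 42 cell cycle genes was called by limma, against 8.85% of all genes (median 0.13), and their largest departure was 0.48. An unadjusted limma p under 0.05 was found in 16 of the 42 and in 4087 of all 11700 genes, a share of similar size.

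The classes of PRDX1 rises and falls that were smaller in the presence of RANKL held few genes, but they leave out the shared changes. In the shared rises the median PRDX1 change was 1.03 without RANKL and -0.15 with it. In the shared falls these medians were -0.81 and 0.040. Fabp5, a fatty acid carrier, stood at 137 and 147 FPKM with neither agent, 385 and 348 with PRDX1, 198 and 186 with RANKL and 263 and 256 with both, with a departure of -0.93 ± 0.084 (SE, adjusted p = 4.28e-05). Rhov, a small GTPase, stood at 1.43 and 1.87 FPKM with neither agent, 8.24 and 7.34 with PRDX1, 2.57 and 2.52 with RANKL and 5.28 and 5.23 with both, with a departure of -0.92 ± 0.14 (SE, adjusted p = 0.00118). Bcl2a1b, a survival factor with near-identical copies among which reads could be split, stood at 16.9 and 17.9 FPKM with neither agent, 78.4 and 80.05 with PRDX1, 11.7 and 13.9 with RANKL and 34.9 and 34.3 with both, with a departure of -0.75 ± 0.11 (SE, adjusted p = 0.00073). In all 3 the level with both agents lay between PRDX1 alone and RANKL alone. Among falls, Serpinb10, a protease inhibitor, stood at 1.68 and 1.86 FPKM with neither agent, 0.467 and 0.391 with PRDX1, 0.811 and 1.21 with RANKL and 1.47 and 1.39 with both, and its departure was 1.24 ± 0.17 (SE, adjusted p = 0.000541), or 2.31 with a pseudocount of 0.1 and 2.56 by voom.

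PRDX1 changed 5.79% of the genes in the absence of RANKL and 10.2% in its presence by the same rule. In 25 genes both changes were called and their directions were opposite, 16 with a rise without RANKL and a fall with it and 9 the other way. Acp5 was one of the 16, at 1.15 without RANKL and -2.76 with it, and Mrc1 was one of the 9, at -1.11 and 0.84.

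A few called genes cannot be read as they stand. Of 253 microRNA or small nucleolar RNA genes tested 26 were called, against 1036 of all 11700 genes, a share of similar size. Of the 1036 genes 29 had fewer than 50 reads in every library. Mir7062 (2.49), Mir7029 (2.29), Mir7045 (1.41), Mir135a-1 (1.14), Mir8091 (0.90) and Mir7653 (-1.78) met the naming rule at no more than 30 reads in any library. Such short genes can lie within others, and reads were counted without strand, so reads of a host gene or an antisense partner cannot be told apart from theirs. The genes of largest departure outside the classes, Gm14295 (0.79), I830077J02Rik (0.72), Mcts2 (-0.71) and E2f2 (0.71), departed by under 2-fold. Gm14295 became 1.57 with a pseudocount of 0.1 and 1.69 by voom, and Mcts2 -1.15 with a pseudocount of 0.1 and -1.29 by voom. With no level filter Mir7062, Mir7045, Mir135a-1, Mir8091, I830077J02Rik and Mcts2 lost their calls, and except for Mir7062 each also lost it when 1 library was left out. By voom Mir7045, Mir135a-1, Mir8091 and Mcts2 lost theirs, with a pseudocount of 0.1 Mir8091 and I830077J02Rik, and under the replicate block Mir135a-1. Just inside the fold threshold lay Bmp2 (-0.59, passing the level filter only through RANKL alone and lost without any of 6 single libraries) and just outside it Ppcdc (-0.58).

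Promoter windows of 300 bases in RefSeq (GRCm38.p6) matched 8915 of the 11700 genes, and both strands were searched. The ISRE was in 12.4% of the windows of genes called above, 7.22% of those called below and 7.55% of all. GAGGAAGT was in 6.6%, 3.21% and 3.58%, TGANTCA in 7.12%, 9.09% and 5.04%, and the NF-kB motif in 7.12%, 13.6% and 9.92%. The E-box CACGTG was in 9.76%, 9.36% and 10.3%, and the sterol element TCACNCCAC in 1.32%, 1.6% and 1.01%. These shares describe letters in a window and were not tested.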

How the data were processed

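RNA-seq reads (100 bp, paired-end, NovaSeq) were, per the submitters' processing notes and the file headers, aligned with HISAT2 to mm10 and counted by HOMER on exons of RefSeq genes, on both strands, with 1 transcript kept per gene. The deposited values are FPKM, which the authors made by dividing by transcript length and library total. FPKM times length gave whole reads (within 0.2) for 100% of the low values checked. The table has 0 other columns of per-sample values, and its 8 libraries were grouped by their labels.

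log2(FPKM + 1) was fitted with limma 3.58.1 (R 4.3.3) over the genes passing the level filter of 0.5, in a single model holding all 4 groups and with eBayes trend. The interaction contrast was called at a Benjamini-Hochberg adjusted p under 0.05 and at least 1.5-fold. The same fit was also run on simulated data, with an outcome that is not given here. The members and gene lists were chosen with earlier results of these data known. Genes named were, for each direction, the 12 called genes of largest departure with 1 sign in all 16 ways of taking 1 library per group, the 4 largest of each response class, up to 3 called members of each list, and genes the study names. A gene that met this rule is not reported here. Alternatives were another pseudocount, no level filter, quantile and upper quartile scaling, voom on recovered reads, a replicate block, each library left out, the linear scale and other thresholds. Markers of other cell types were summed in FPKM.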

Additional observations from a re-analysis of the deposited data

Results flagged for a closer look

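The response to PRDX1 differed between cells with and without RANKL in 1036 genes, by the test of that difference in the limma model. Among these, genes with called PRDX1 effects of opposite direction stand out for a closer look. Rises without RANKL that became falls with it were seen in 16 genes, of which those that met the naming rule were, with these departures, Atp6v0d2 (-4.26), Mmp14 (-4.05), Acp5 (-3.91), Dcstamp (-3.25), Tm4sf19 (-3.02), Bhlhe40 (-2.03) and Mir7653 (-1.78, at most 3 reads). Falls without RANKL that became rises with it were seen in 9 genes, among them by the same rule Gas6 (1.86), Mrc1 (1.95), Stab1 (2.11) and Mir7029 (2.29, at few reads). Src (-2.97) was the largest of the rises that became falls outside that rule. No group had 4 or more libraries, so no library could be tested as standing apart from its own group.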

How the results depend on the processing

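Calls above and below were 654 and 585 with a pseudocount of 0.1, 494 and 489 with no level filter, 534 and 469 after quantile normalization, 543 and 484 after upper quartile scaling, and 709 and 620 by voom on recovered reads. Leaving out 1 library gave 502 to 573 above, 481 to 557 below and 983 to 1094 in all. Between 88.3% and 97.5% of the 1036 genes were called again under each of these settings, and 4 changed sign, all by voom. An adjusted p alone gave 1307 above, 1400 below and 2707 in all, and a departure of at least 2-fold gave 145, 190 and 335. With a fold threshold of 2 for the single effects, shared rises became 33 and shared falls 24. Smaller PRDX1 rises became 18, smaller PRDX1 falls 7 and unclassed genes 252. After quantile normalization the genes lowest with both agents became 59. The replicate block gave 530 above and 512 below, with 1029 genes shared. Replicate numbers did not pair the libraries (correlation of same-numbered deviations 0.0085 to 0.097). The header of the table carries other directory numbers, and a pairing by those was not examined. On the linear FPKM scale 35 of the 1036 genes turned sign, 31 above and 4 below. Among them were Fcgr1 at -6.41, Ccl3 at -6.34, Ch25h at -11.2, Hmox1 at -79.0 and Atf3 at -12.7 FPKM, and Apoe, given below. Departures near 0 also turned: Acod1 at 3.67, Nfkb1 at -0.44 and Irf7 at 1.25 FPKM on the linear scale, and, leaving out 1 library, Acod1 from -0.14 to 0.039, Rela from -0.050 to 0.10 and Nfkb1 from -0.044 to 0.053. The median of the TLR4-responsive genes moved from -0.051 to -0.55 with a pseudocount of 0.1 and -0.56 by voom, and leaving out 1 library gave -0.18 to -0.012. The cause was not tested. The medians of RANK and ITAM signaling, glycolysis, immediate early genes and osteoclast repressors crossed 0 in some setting. Depth limits genes of few reads, whose departures moved with the pseudocount.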

Other observations

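Further genes chosen after their values were seen share a course in which RANKL alone raised them and both agents brought them to or under the untreated level. Chst11, a chondroitin sulfate transferase, stood at 1.33 and 1.57 FPKM with neither agent, 1.27 and 1.76 with PRDX1, 3.22 and 3.29 with RANKL and 1.31 and 1.42 with both, with a departure of -0.88 ± 0.16 (SE, adjusted p = 0.00348). Tfrc, the transferrin receptor that brings iron into the cell, stood at 67.8 and 73.5 FPKM with neither agent, 77.4 and 80.7 with PRDX1, 118 and 109.8 with RANKL and 67.6 and 64.6 with both, with a departure of -0.94 ± 0.082 (SE, adjusted p = 3.67e-05). Among genes RANKL alone lowered, Apoe, a lipid carrier of macrophages, stood at 852 and 787 FPKM with neither agent and 1176 and 1285 with PRDX1. It stood at 134 and 161 FPKM with RANKL and 504 and 516 with both. Its departure was 1.2 ± 0.11 (SE, adjusted p = 5.17e-05) on the log scale but below 0 in summed differences of FPKM, a turn of sign. Abca1, the exporter of cholesterol, stood at 6.88 and 7.95 FPKM with neither agent, 6.59 and 7.27 with PRDX1, 3.16 and 3.86 with RANKL and 7.7 and 8.18 with both, with a departure of 1.08 ± 0.14 (SE, adjusted p = 0.000464), and with both agents it stood near the level of untreated cells.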
